A study of Mus musculus with 4 samples.

Results

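Expression of 8 genes that are used to describe the activation state of macrophages was examined in mouse articular cartilage after injury. They are the classical activation gene Nos2 and the alternative activation genes Mrc1, Clec10a, Mgl2, Cd163, Retnla, Chil3 and Il10. The genes were taken by exact symbol, and all 8 were found among the 24532 genes of the table. Of these genes, 18181 were above 0 in at least 1 library, and the 8 genes were among them. The study compared cartilage of young and adult mice to ask how age bears on the repair of a cartilage defect. All 4 groups were wild-type C57BL/6 mice, and each group was represented by 1 RNA-seq library. Sham and injured cartilage was sequenced from young and from adult mice, with injured cartilage taken 3 days after surgery. Young mice were aged 3 weeks. For adult mice one label gives an age of 12 weeks and another 14 weeks, and the methods of the study give 10 weeks. The labels name DMM surgery for the injured joints and the methods describe a full-thickness cartilage injury of the patellar groove. The label of the adult sham library spans days 3 to 14. Each library pooled the cartilage of 5 uninjured or 10 injured mice, so no difference between libraries could be tested and no SD can be given. The labels call the cells chondrocytes, but dissected cartilage was sequenced, with whatever cells had entered it.

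Macrophages are phagocytes that take on different states in response to the signals around them. In the classical state, driven by IFN-γ and microbial products, the inducible nitric oxide synthase encoded by Nos2 turns arginine into nitric oxide. In the alternative state, driven by IL-4 and IL-13 through STAT6, cells display lectin receptors that take up sugar-bearing proteins, whereas IL-10 is known to raise the hemoglobin receptor CD163. The states are ends of a range, and several of the genes are also used by cells other than macrophages.

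Mrc1 and Clec10a rose at both ages, Mrc1 with the larger ratio in young cartilage. Nos2 and Chil3 passed the 2-fold threshold in adult cartilage and did not pass it in young cartilage. The calls of Nos2, Chil3 and Clec10a, and that of Mrc1 in adult cartilage, depended on the processing, as given beside their values. Retnla, Mgl2, Cd163 and Il10 stayed below a 2-fold difference on the log2(FPKM + 1) scale in every comparison. Of these, Retnla and Il10 passed it for injury with 0.1 FPKM added in place of 1. FPKM are fragments divided by the length of the transcript and by the mapped fragments of the library. A difference was calculated as the log2 ratio of FPKM + 1 between 2 libraries, which understates the change of genes at low levels, and counted as changed at 2-fold or more. In young cartilage 2 of the 8 genes rose with injury and 0 fell, beside 4.57% of all 18181 genes that rose and 1.27% that fell. In adult cartilage 4 of 8 rose and 0 fell, beside 6.90% and 1.46% of all genes. The median log2 ratio of the 8 genes was 0.53 in young and 0.72 in adult cartilage, and that of all genes was 0 and 0.14.

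**Figure D1:**
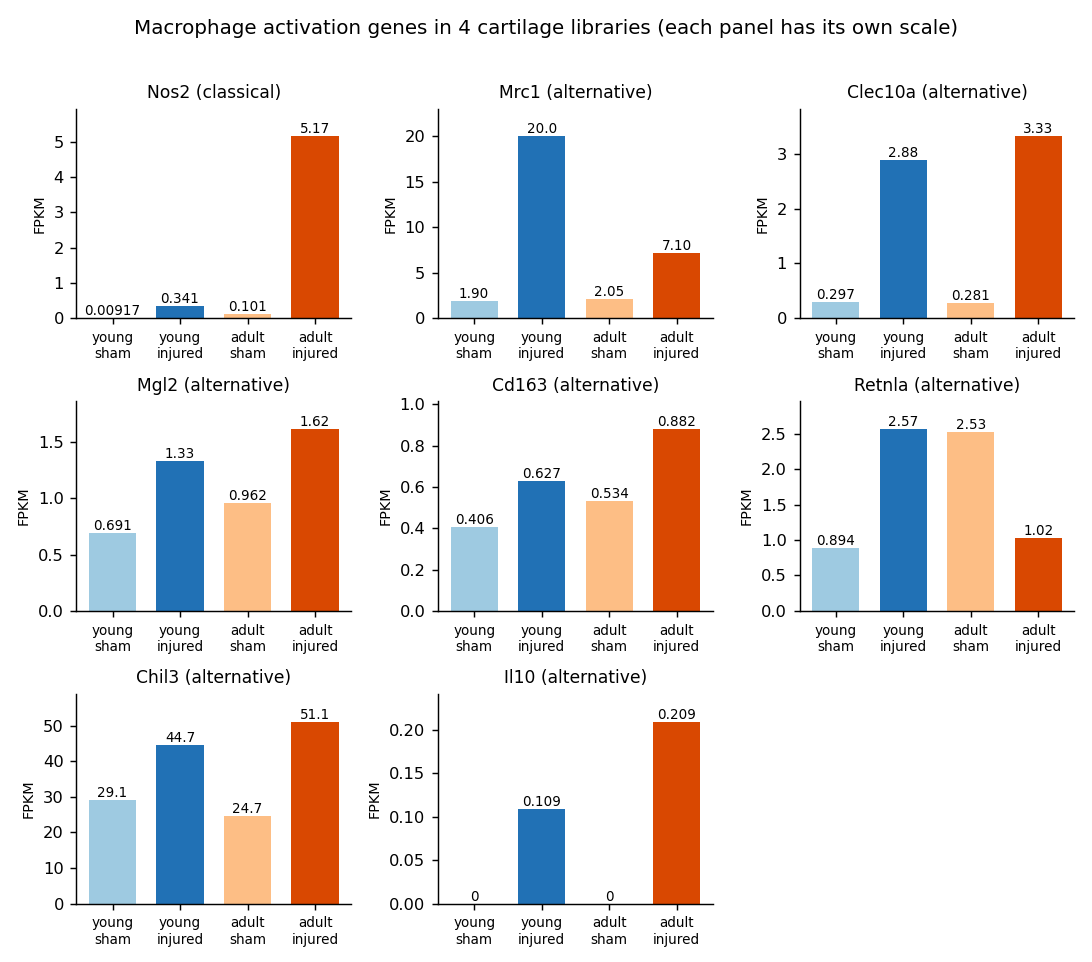
FPKM (vertical axes, a separate linear scale for each panel) of the 8 genes in the 4 libraries, 1 bar per library with its value above it. Nos2 is high only in the adult injured bar at 5.17 FPKM, Mrc1 is highest in young injured cartilage at 20.02 FPKM, and Clec10a is high in both injured bars.

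The smallest steps between low values correspond to between 25600000 and 30800000 fragments per library if 1 step is 1 fragment. All 12 housekeeping genes examined were above 0 in every library. The general level of genes was not equal, however. For 10891 genes at 1 FPKM or more in each of the libraries, the ratio had a median of 0.23 log2 units for injury in adults and −0.30 between adult and young sham. After median-of-ratios scaling, which brings these medians to −0.06 and 0.07, the split of all genes after injury in adult cartilage was 802 higher and 527 lower in place of 1255 and 266. For the sham libraries it was 1065 higher and 932 lower in adult cartilage in place of 484 and 1934. Chondrocyte genes were abundant in every library, with Col2a1 between 3172.8 and 9349.4 FPKM. Of 8 measured chondrocyte genes, 5 were 2-fold or more lower in adult than in young sham cartilage. Comp, the 1 gene that was higher, had a log2 ratio of 2.44. Among all genes 10.6% were lower and 2.66% higher in that comparison. Of 8 epidermal and liver genes, Krt5, Krt14, Alb and Ttr were listed at 0 in all 4 libraries, and the others were low, with Krt10 highest at 1.14 to 2.33 FPKM.

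Macrophage RNA itself was far more abundant after injury. The 20 pan-macrophage markers, which include Adgre1 (F4/80), Cd68, Csf1r and the complement C1q chains, summed to 293.9 and 2629.8 FPKM in sham and injured young cartilage, and to 411.5 and 2307.9 FPKM in sham and injured adult cartilage. After injury 19 of 20 rose 2-fold or more at either age, and their median log2 ratio was 2.88 in young mice and 2.26 in adults. Adgre1 stood at 1.33 and 30.3 FPKM in sham and injured young cartilage, and at 3.22 and 16.8 FPKM in sham and injured adult cartilage. In bulk tissue, a change in the number of cells of a type and a change in RNA per cell cannot be told apart. Each gene of the set was therefore also set beside the median of the macrophage markers. In young cartilage 0 of the 8 genes exceeded that median. Less the median, the log2 ratio of Mrc1 was −0.03 and those of the other 7 ran from −2.73 to −1.299. In adult cartilage Nos2 exceeded it, by 0.23, and the other 7 genes ran from −3.06 to −0.50 less the median. These counts depend on the 1 FPKM that was added, which lowers the ratios of genes at low levels most. With 0.1 FPKM in its place 1 of the 8 genes exceeded the median in young and 2 in adult cartilage. With 5 FPKM it was 0 at either age.

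**Figure D2:**
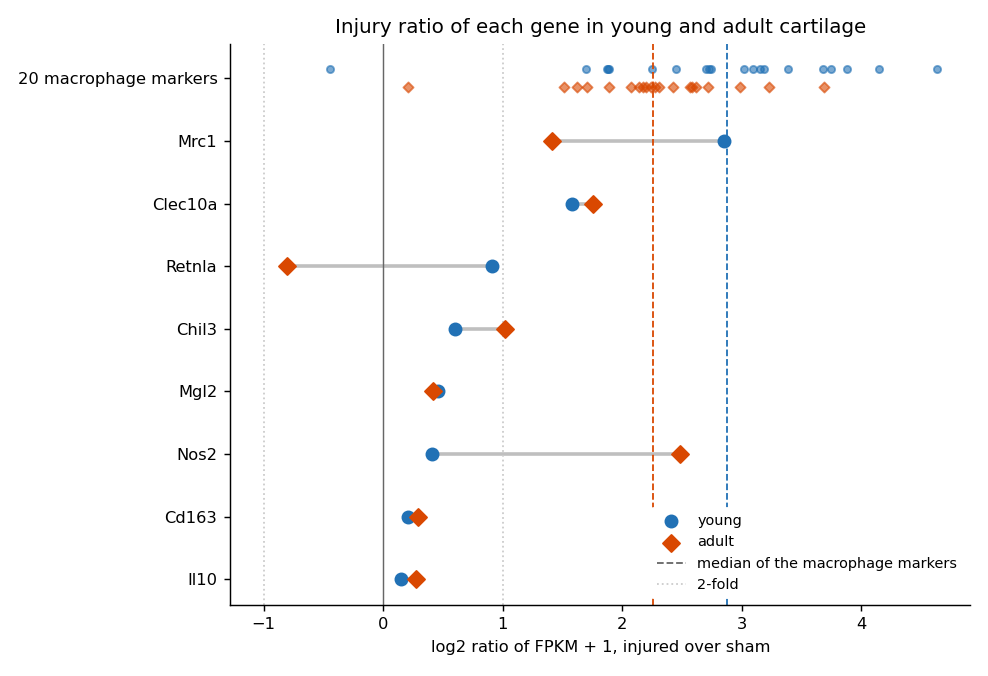
Log2 ratio of FPKM + 1, injured over sham (horizontal axis), for the 8 genes (rows) in young (blue circles) and adult cartilage (orange diamonds), with 20 macrophage markers in the top row, their medians as dashed lines and 2-fold as dotted lines. No gene lies right of the dashed line in young cartilage, Nos2 lies right of it in adult cartilage at 2.49, and Retnla is the only gene with its points on opposite sides of 0, at 0.91 and −0.80.

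Nos2, the enzyme gene of the classical state, had the largest excess of the 8 genes in adult over young injured cartilage. Nos2 (Entrez Gene 18126; chromosome 11, 78920787 to 78960226, plus strand) stood at 0.00917 and 0.341 FPKM in sham and injured young cartilage, and at 0.101 and 5.17 FPKM in sham and injured adult cartilage. The adult injured library was the only one above 1 FPKM, 15.2-fold above the young injured one. From transcript length and library depth these values would correspond to about 1, 31, 11 and 454 fragments, so the young sham level rests on next to nothing and no fold over it is given. The log2 ratio of injury was 0.41 in young and 2.49 in adult cartilage, a difference of 2.08. These ratios depend on the 1 FPKM that was added. With 0.1 FPKM in its place the young ratio was 2.01, past 2-fold, and the adult one 4.71, and with 5 FPKM they were 0.09 and 0.995, both short of 2-fold. A difference of at least 1 in favour of adult cartilage was found in 4.60% of all genes, and one in favour of young cartilage in 1.64%. Between the injured libraries, Nos2 had a log2 ratio of 2.20, larger than that of 99.8% of all genes. Which cells of the cartilage made Nos2 cannot be told from bulk tissue and was not tested.

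Of 20 other genes that handle arginine and were above 0, 1 rose with injury in young and 2 in adult cartilage, shares near the 4.57% and 6.90% of all genes, with medians of 0.00435 and 0.18. Slc7a2, a transporter that brings arginine into the cell, stood at 9.84 and 6.84 FPKM in young sham and injured, and rose from 4.78 to 11.5 FPKM after injury in adults, which gives log2 ratios of −0.47 and 1.11. Gatm, which makes the creatine precursor from arginine, rose from 0.922 to 3.22 FPKM with injury in young mice, a log2 ratio of 1.13. In adults it stood at 0.983 and 2.44 FPKM in sham and injured cartilage, and its log2 ratio of 0.79 was short of 2-fold. Odc1, the ornithine decarboxylase of polyamine synthesis, was at 100.4 and 88.2 FPKM in sham and injured young cartilage, and at 64.2 and 41.3 FPKM in sham and injured adult cartilage. It was 2-fold lower in adult than in young injured cartilage, with a log2 ratio of −1.08. Nos3, the endothelial synthase, stood at 0.196 and 1.31 FPKM in sham and injured young cartilage, and at 0.273 and 1.56 FPKM in sham and injured adult cartilage, log2 ratios of 0.95 and 1.01. Nos1 did not exceed 0.194 FPKM in any library.

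Mrc1, Clec10a and Mgl2 encode lectin receptors of the macrophage surface, and the mannose receptor Mrc1 was the gene with the clearest excess in young injured cartilage. Mrc1 (Entrez Gene 17533; chromosome 2, 14229414 to 14332023, plus strand) stood at 1.90 and 20.02 FPKM in sham and injured young cartilage, and at 2.05 and 7.10 FPKM in sham and injured adult cartilage. The sham libraries were close, and the young injured library was 2.82-fold above the adult injured one. Injury raised it 10.5-fold in young and 3.47-fold in adult cartilage, log2 ratios of 2.86 and 1.41. With 5 FPKM added in place of 1 they were 1.86 and 0.78, the second short of 2-fold. Between the injured libraries its log2 ratio of −1.38 was lower than that of all but 1.49% of genes. The macrophage markers had a median log2 ratio between the injured libraries of −0.19 and a lowest one of −0.85, with 0 of 20 changed 2-fold. As a share of Adgre1, Mrc1 was 142.7% and 66.1% in sham and injured young cartilage, and 63.5% and 42.4% in sham and injured adult cartilage. Whether such a share falls or rises with injury depends on the marker. In young cartilage Adgre1 rose 22.7-fold and C1qb 19.5-fold, more than Mrc1. Lyz2 rose 8.98-fold and Tyrobp 6.84-fold there, less than Mrc1. In adult cartilage Lyz2 rose 5.95-fold, more than Mrc1, and C1qb 3.32-fold, less than Mrc1. Mrc1 is also made by some endothelial cells. The 10 endothelial genes summed to 18.8, 76.9, 20.2 and 64.1 FPKM in the order sham and injured young, then sham and injured adult cartilage, with 5 of 10 higher after injury at either age and 0 of 10 changed 2-fold between the injured libraries. Their part in the Mrc1 values was not tested.

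Clec10a (Entrez Gene 17312; chromosome 11, 70166623 to 70170836, plus strand), a receptor for terminal galactose and N-acetylgalactosamine, stood at 0.297 and 2.88 FPKM in sham and injured young cartilage, and at 0.281 and 3.33 FPKM in sham and injured adult cartilage. Both injured libraries were high and both sham libraries low, with 9.71-fold and 11.8-fold rises, and the ages were close in either state. The sham levels would correspond to about 11 fragments in young and 13 in adult cartilage. With 5 FPKM added in place of 1 the log2 ratios were 0.57 and 0.66, both short of 2-fold. Its neighbour Mgl2 (Entrez Gene 216864; chromosome 11, 70130125 to 70137542, plus strand), a close relative 29.08 kb away, stood at 0.691, 1.33, 0.962 and 1.62 FPKM in the same order. For Mgl2 the ratios were 0.46 in young mice and 0.42 in adults on the log2 scale, against 1.58 and 1.76 for Clec10a. The genes share sequence, since 19.3% of the 31-base words of Mgl2 transcripts also occur in Clec10a and 13.7% of those of Clec10a occur in Mgl2, so a part of their reads could be assigned to either. Both are also markers of dendritic cells, of whose 12 other markers 2 were higher after injury in young and 3 in adult cartilage, with medians of 0.49 and 0.47. A pseudogene, Gm12311, overlaps the Mgl2 locus.

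Among all 27 C-type lectin and scavenger receptors, the members of the set included, 13 rose and 0 fell after injury at either age, with medians of 0.74 and 0.93. The inflammatory lectins Clec4d and Clec4n were among the most strongly raised, and Clec4d went from 0.986 to 24.8 FPKM with injury in young mice and from 0.647 to 20.6 FPKM in adults. The scavenger receptor Msr1 went from 0.372 to 19.6 and from 0.425 to 9.88 FPKM. Between the injured libraries Msr1 was lower in adult cartilage, with a log2 ratio of −0.92, just short of 2-fold. The highest ratio among the 27 receptors was 0.56. Mrc1 was the only one of the 27 that reached 2-fold there on the log2(FPKM + 1) scale. The related receptor Mrc2, which mesenchymal cells express, was at 39.4 and 38.8 FPKM in sham and injured young cartilage, and at 20.8 and 38.6 FPKM in sham and injured adult cartilage.

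Cd163 (Entrez Gene 93671; chromosome 6, 124304636 to 124330529, plus strand), which takes up hemoglobin bound to haptoglobin and marks resident tissue macrophages, did not follow the macrophage markers. It stood at 0.406 and 0.627 FPKM in sham and injured young cartilage, and at 0.534 and 0.882 FPKM in sham and injured adult cartilage, below 1 FPKM throughout. The log2 ratios of injury were 0.21 and 0.30. Of 15 other genes of hemoglobin and iron handling, 5 rose in young and 7 in adult cartilage and 0 fell, with medians of 0.78 and 0.92. Hmox1, the heme oxygenase that degrades heme, rose from 8.90 to 189.8 FPKM with injury in young mice and from 6.98 to 132.9 FPKM in adults. Haptoglobin (Hp), which binds hemoglobin before its uptake, rose from 16.4 to 45.6 and from 30.6 to 159 FPKM, and the ferritin light chain Ftl1 from 703.8 to 1518.4 and from 356 to 1519.9 FPKM. The biliverdin reductase gene Blvrb, named after its values were seen, did not pass, with log2 ratios of 0.58 and −0.57. Markers of resident macrophages were mixed. Of the 11 such genes outside the set that were above 0, 6 rose in young and 5 in adult cartilage and 0 fell. Folr2 rose from 3.92 to 29.5 FPKM with injury in young mice and from 10.8 to 35.3 FPKM in adults, whereas Lyve1, named after its values were seen, went from 2.99 to 1.02 and from 2.72 to 1.32 FPKM.

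Retnla and Chil3 encode secreted proteins, known as Fizz1 and Ym1, that are classical readouts of IL-4 signalling in mouse macrophages, and they behaved differently. Retnla (Entrez Gene 57262; chromosome 16, 48842609 to 48844461, plus strand) stood at 0.894 and 2.57 FPKM in sham and injured young cartilage, and at 2.53 and 1.02 FPKM in sham and injured adult cartilage. It was higher after injury in young cartilage and lower in adult cartilage, and the adult sham library was as high as the young injured one. None of its 4 log2 ratios of FPKM + 1 reached 2-fold, with 0.91 and −0.80 for injury in young and adult cartilage and 0.90 and −0.82 for age in sham and injured cartilage. With 0.1 FPKM added in place of 1, all 4 passed it, at 1.43 and −1.23 for injury and 1.40 and −1.25 for age in the same order. After median-of-ratios scaling 2 passed, at −1.05 for injury in adult cartilage and 1.19 for age in sham cartilage, and as TPM 2 passed, at 1.05 for injury in young cartilage and 1.10 for age in sham cartilage. The transcript is short and shares 5.45% of its 31-base words with Retnlg, and these levels would correspond to about 14, 40, 47 and 16 fragments. The pattern has no replicate check. A gain of 1.5-fold or more in young cartilage with a loss of 1.5-fold or more in adult cartilage was found in 32 of 18181 genes, 0.176%.

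Chil3 (Entrez Gene 12655; chromosome 3, 106147554 to 106167564, minus strand) was the most abundant of the 8 genes in all 4 libraries. It stood at 29.1 and 44.7 FPKM in sham and injured young cartilage, and at 24.7 and 51.1 FPKM in sham and injured adult cartilage, so both injured libraries were above both sham libraries, with folds of 1.54 in young and 2.07 in adult cartilage. The adult log2 ratio of 1.02 fell to 0.69, short of 2-fold, after median-of-ratios scaling. Chil3 is also made by monocytes and by maturing neutrophils. Of 12 other genes of monocytes and recruited macrophages, 9 rose and 1 fell after injury in young and 10 rose and 1 fell in adult cartilage, with medians of 1.49 and 1.64. The monocyte marker Ly6c2, named after its values were seen, stood at 14.0, 33.9, 14.6 and 35.2 FPKM, listed as for Chil3, whereas Thbs1, the gene that fell, went from 412 to 119.9 and from 470 to 55.8 FPKM. Of 16 neutrophil genes 6 rose in young and 4 in adult cartilage and 0 fell, and S100a8 stood at 405.9, 845.2, 591.2 and 654.9 FPKM. The part of these cells in the Chil3 level was not tested. Of the 31-base words of Chil3 transcripts, 41.5% occur in another gene, most of them in Chil4 (28.9%), which stood at 0.196 FPKM in young sham and was listed at 0 in the other 3 libraries. The related Chil1, made by chondrocytes and synovial cells as well as macrophages, reached far higher levels, with 42.4, 1575.7, 66.5 and 10398.3 FPKM listed the same way. The resistin relative Retnlg, a neutrophil gene, at 39.5, 78.9, 33.3 and 45.3 FPKM, was nearer to Chil3, and Retnlb was listed at 0 in all 4 libraries.

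Promoter sequences were read from RefSeq on GRCm38.p6 for 3 genes, the receptor gene Mrc1 that was lower in adult than in young injured cartilage and the secreted protein genes Retnla and Chil3. They run from 250 bases before to 50 bases after the start site. Capitals mark matches on either strand to 5 motifs, which were TTC and GAA with 4 bases between (STAT6 type), TTC and GAA with 3 bases between (GAS type), TTGCNNAA (C/EBP type), TGANTCA (AP-1 type) and GAGGAA (PU.1 type).
Mrc1, chr2:14229164-14229463, plus strand: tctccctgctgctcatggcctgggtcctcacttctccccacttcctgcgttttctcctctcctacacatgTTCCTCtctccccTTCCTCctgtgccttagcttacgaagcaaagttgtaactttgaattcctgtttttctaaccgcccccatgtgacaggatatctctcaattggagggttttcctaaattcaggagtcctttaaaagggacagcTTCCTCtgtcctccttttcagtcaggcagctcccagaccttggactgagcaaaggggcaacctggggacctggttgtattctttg
Retnla, chr16:48842359-48842658, plus strand: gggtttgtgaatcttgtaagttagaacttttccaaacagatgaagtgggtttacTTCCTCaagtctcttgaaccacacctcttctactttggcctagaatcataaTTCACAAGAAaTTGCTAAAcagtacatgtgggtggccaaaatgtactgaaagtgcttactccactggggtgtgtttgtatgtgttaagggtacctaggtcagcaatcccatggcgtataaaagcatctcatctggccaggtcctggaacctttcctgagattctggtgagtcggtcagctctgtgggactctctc
Chil3, chr3:106167515-106167814, minus strand: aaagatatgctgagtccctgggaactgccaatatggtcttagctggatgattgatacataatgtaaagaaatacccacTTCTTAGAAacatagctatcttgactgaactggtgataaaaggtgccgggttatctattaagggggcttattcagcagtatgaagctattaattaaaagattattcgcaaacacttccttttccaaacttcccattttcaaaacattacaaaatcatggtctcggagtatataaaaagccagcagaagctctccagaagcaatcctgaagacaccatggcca
Counted from the start site, Retnla held a STAT6 type match starting at −145, a C/EBP type match starting at −134, 1 base after the first ends, and a PU.1 type match starting at −196. Chil3 held a GAS type match starting at −172. Mrc1 held 3 PU.1 type matches, starting at −180, −167 and −35, and none of the other motifs. Of 32851 promoters of the same length, 6.95% held the STAT6 type motif, 8.30% the GAS type, 10.8% the C/EBP type, 7.81% the AP-1 type and 28.3% the PU.1 type. A match is a description of the letters only. Promoters were found for 5 of the 8 genes. Of the other 2, Mgl2 held 1 PU.1 type match and Cd163 none.

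Il10 (Entrez Gene 16153; chromosome 1, 131019845 to 131024970, plus strand), the anti-inflammatory cytokine, was listed at 0 in both sham groups and stood at 0.109 FPKM in the young and 0.209 FPKM in the adult injured library. It was the lowest of the 8 genes in both injured libraries, where the levels would correspond to about 4 and 7 fragments, and its presence in sham cartilage was not detectable at this depth. Its log2 ratios of injury were 0.15 in young and 0.27 in adult cartilage. With 0.1 FPKM added in place of 1 they were 1.06 and 1.63, both past 2-fold. Of 9 other genes of its pathway, 6 rose in young and 9 in adult cartilage and 0 fell, with medians of 1.35 and 1.77. The receptor chain Il10rb rose from 5.77 to 15.8 and from 7.12 to 16.1 FPKM, and Bcl3, an NF-kB cofactor, from 1.17 to 10.1 and from 0.915 to 16.1 FPKM. Stat3, which carries the IL-10 signal and that of other cytokines, was at 24.6 and 35.02 FPKM in young sham and injured, and rose from 11.1 to 48.6 FPKM after injury in adults, which gives log2 ratios of 0.49 and 2.03. Its level in the adult sham library was 2-fold lower than in the young one, with a log2 ratio of −1.08.

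The cytokines that drive either state were scarce. Il4, named with Il13 and Ifng after their values were seen, was listed at 0 except for 0.126 FPKM in young injured cartilage, Il13 was listed at 0 in all 4 libraries, and Ifng was listed at 0 except for 0.0322 FPKM in adult injured cartilage. Most of the receptor genes were at higher levels, although Il13ra2, the decoy receptor of IL-13, named after its values were seen, did not exceed 0.210 FPKM in any library. Il4ra, the shared receptor chain for IL-4 and IL-13, rose from 1.47 to 14.1 FPKM with injury in young mice and from 1.19 to 16.3 FPKM in adults. Its partners Il13ra1 and Il2rg and the kinase Jak3 rose as well, by 2.37, 2.49 and 1.05 on the log2 scale in young mice and by 2.70, 2.33 and 1.33 in adults. These 4 genes were the ones raised among 16 genes of the IL-4 and IL-13 pathway above 0, at either age. Stat6 was at 15.96 and 20.4 FPKM in sham and injured young cartilage, and at 24.3 and 27.3 FPKM in sham and injured adult cartilage. Of 9 genes of the IFN-γ pathway, 1 rose in young and 2 in adult cartilage, with medians of 0.35 and 0.59. Irf8, a transcription factor of macrophages, rose from 3.12 to 9.07 and from 2.06 to 8.398 FPKM.

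Wider lists of classical and alternative activation genes were compared after injury. Of 24 classical genes, Nos2 included, 11 rose in young and 12 in adult cartilage and 0 fell, with medians of 0.82 and 1.01. Of 25 alternative genes outside the set, 9 rose in young and 12 in adult cartilage and 0 fell, with medians of 0.63 and 0.88. The 7 alternative genes of the set had medians of 0.60 and 0.42, with 2 and 3 raised. Among classical genes, Il1b, which encodes interleukin-1β, rose from 0.394 to 8.27 FPKM with injury in young mice and from 0.453 to 22.2 FPKM in adults. The chemokine gene Cxcl10 rose from 0.0512 to 7.61 and from 0.148 to 5.07 FPKM, and Tnf from 0.168 to 2.02 and from 0.335 to 1.81 FPKM. Among alternative genes, the lipid receptor Trem2 rose from 1.39 to 38.3 FPKM with injury in young mice and from 8.45 to 36.0 FPKM in adults, and Gpnmb from 0.372 to 12.1 and from 3.46 to 8.51 FPKM. Fcgr3 (CD16), which the study used as a classical marker, rose from 17.1 to 57.7 and from 7.57 to 38.4 FPKM. By qRT-PCR the study reported lower CD16, but higher iNOS (Nos2) and CD206 (Mrc1), in young than in adult mice. Here the adult over young log2 ratios after injury were −0.57 for Fcgr3, 2.20 for Nos2 and −1.38 for Mrc1. The injury ratio of Fcgr3 was smaller in young cartilage, at 1.70 against 2.20. The study scaled to GAPDH and tested against sham, so the measures are not alike.

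**Figure D3:**
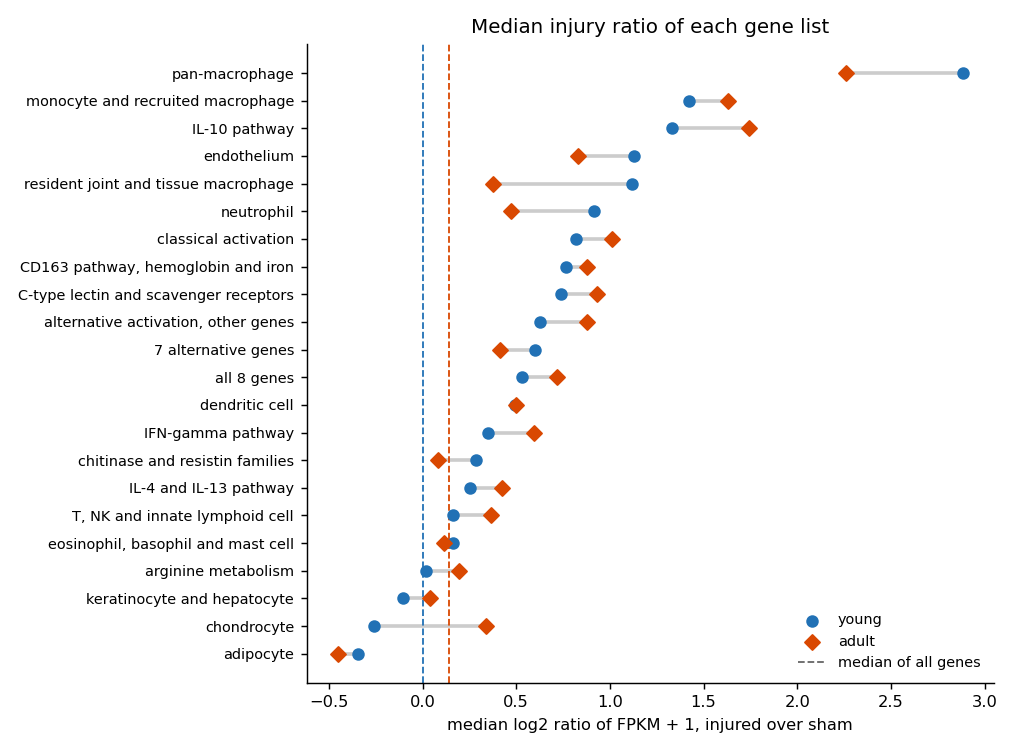
Median log2 ratio of FPKM + 1, injured over sham (horizontal axis), for 20 context lists of genes and, as 2 further rows, for the 8 genes and for the 7 alternative genes among them, in young (blue circles) and adult cartilage (orange diamonds), with the medians of all genes as dashed lines. The macrophage markers lie furthest right, at 2.88 and 2.26, and the 24 classical genes and the 25 alternative genes outside the set lie close together at each age, whereas the 7 alternative genes of the set lie lower in adult cartilage, at 0.42.

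Age was compared in sham and in injured cartilage. Between the sham libraries, 0 of the 8 genes differed 2-fold in either direction, beside 2.66% of all genes higher and 10.6% lower in adult cartilage, and the median of the 8 genes was 0.10 against −0.15 for all genes. The difference furthest above 0 was that of Retnla at 0.90, and the one furthest below was that of Chil3 at −0.23, which turned to 0.20 after median-of-ratios scaling. Between the injured libraries, Nos2 was higher and Mrc1 lower in adult cartilage, beside 1.80% of all genes higher and 3.09% lower, and the other 6 genes did not reach 2-fold. The medians were 0.16 for the 8 genes and −0.04 for all genes. The comparisons share libraries, so a high young injured level enters both the injury ratio in young cartilage and the age ratio in injured cartilage. Of the 24 classical genes, 3 were higher and 0 lower in adult than in young injured cartilage. They were Nos2, Il1b with a log2 ratio of 1.32 and Acod1, which makes itaconate, with 0.642 FPKM in young and 2.93 in adult injured cartilage. Of the 25 alternative genes outside the set, Vegfa and Fn1 were higher in adult injured cartilage, with log2 ratios of 1.94 and 1.02, and Igf1 and Alox15 were lower, with −1.19 and −1.18. Acod1, Igf1 and Alox15 were named after their values were seen. Fn1 and Vegfa are also strongly expressed by cells of the joint other than macrophages.

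**Figure D4:**
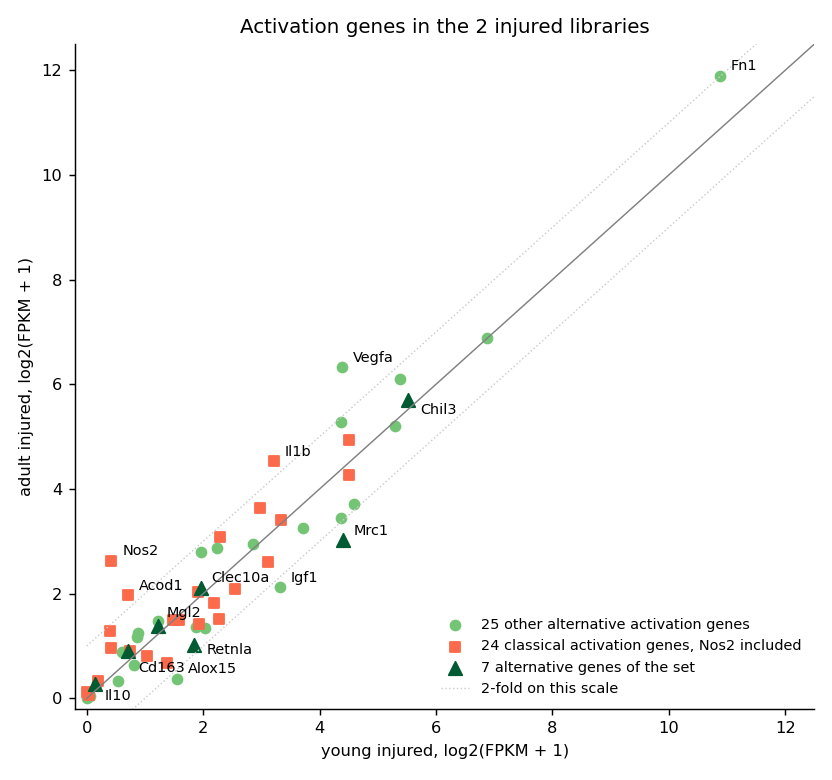
Level in young injured (horizontal axis) against adult injured cartilage (vertical axis), both as log2(FPKM + 1), for the 7 alternative genes of the set (triangles), 24 classical genes with Nos2 (squares) and 25 other alternative genes (circles), with the line of equality and dotted lines at 2-fold. Nos2, Il1b, Acod1, Vegfa and Fn1 lie above the upper dotted line and Mrc1, Igf1 and Alox15 below the lower one, while Clec10a and Chil3 lie near equality.

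The sum of the 8 genes was close at both ages, with 33.3 and 72.6 FPKM in sham and injured young cartilage, and with 31.2 and 70.5 FPKM in sham and injured adult cartilage. Chil3 made up 87.4% of the sum in young sham and 79.3% in adult sham cartilage, and 61.6% and 72.6% after injury. The injured libraries differed in Mrc1, with 27.6% in young and 10.1% in adult cartilage, and in Nos2, with 0.470% and 7.34%. The ratio of Mrc1 to Nos2 was 58.8 in young injured and 1.37 in adult injured cartilage. It was 20.2 in adult sham cartilage, and none is given for young sham cartilage, where Nos2 would correspond to about 1 fragment. In order of level, young injured cartilage had Chil3, Mrc1, Clec10a, Retnla, Mgl2, Cd163, Nos2 and Il10, and adult injured cartilage had Chil3, Mrc1, Nos2, Clec10a, Mgl2, Retnla, Cd163 and Il10. With 1 library per group, it cannot be said which neighbours in this order differ beyond the spread between samples.

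**Figure D5:**
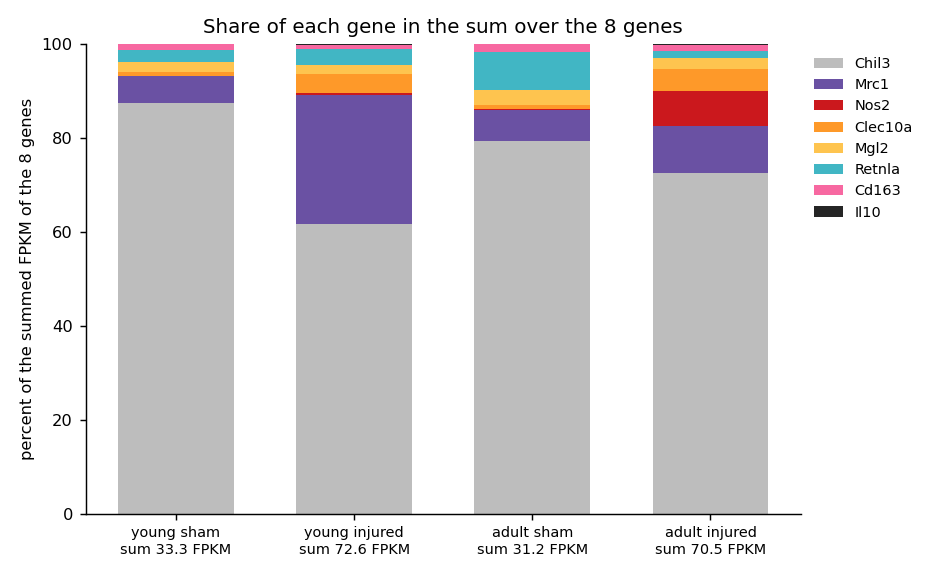
Share of each gene in the summed FPKM of the 8 genes (vertical axis, percent), 1 stacked bar per library with the sum under it. Chil3 fills most of all 4 bars, Mrc1 fills 27.6% of the young injured bar and 10.1% of the adult injured one, and Nos2 is prominent only in the adult injured bar at 7.34%.

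Some genes outside the set had profiles over the 4 libraries close to those of the set, measured as the distance between log2(FPKM + 1) values centred on their mean, over 8055 genes whose mean reached 5 FPKM. With 4 libraries such likeness is common. The nearest to Nos2 were Ier3, Has1 and Cebpd, at distances of 0.42, 0.51 and 0.55, and Has1, which makes hyaluronan, went from 1.95 to 4.39 FPKM with injury in young mice and from 3.83 to 17.7 FPKM in adults. The nearest to Mrc1 were Rtp4, Irf7 and Oas1a, genes induced by type I interferon, at 0.27, 0.39 and 0.51, followed by the endothelial marker Emcn at 0.54 and Igfbp3 at 0.55. Irf7 stood at 5.46 and 32.7 FPKM in sham and injured young cartilage, and at 5.47 and 16.7 FPKM in sham and injured adult cartilage.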

How the data were processed

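RNA of pooled mouse articular cartilage was sequenced in 4 libraries, 1 per group, with a strand-specific poly-A kit. The authors deposited FPKM per gene and library on mm10. The labels' processing notes name HISAT2 2.1.0, StringTie 1.3.4d, HISAT, STAR and SAMtools without their roles. Columns were matched to libraries by name, and no further scaling was applied. Log2 ratios of FPKM + 1 were calculated for 4 comparisons over 18181 genes, and 2-fold or more counted as changed. With 1 library per group, no test across libraries, p-value or SD was possible. The 8 genes, 20 context lists, named genes and alternatives were chosen with earlier results of these data known. From each list, the 3 genes of highest mean FPKM and up to 4 of largest injury ratio could be named, besides the 8 genes, their close relatives, genes of the study's macrophage qRT-PCR and the 5 nearest profiles per gene. Further genes of the set and of the lists are not reported here. Coordinates and promoters came from RefSeq on GRCm38.p6, the assembly of mm10, and shared 31-base words from GENCODE transcripts. Fragment numbers were estimated from steps of low FPKM and transcript length, and cover counting only. The ratio and scaling steps were tested on simulated data. Python 3.11.15, numpy 2.4.6, pandas 2.3.3 and matplotlib 3.10.9 were used.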

Additional observations from a re-analysis of the deposited data

Results flagged for a closer look

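Retnla was marked for a closer look because its injury ratio had opposite signs at the 2 ages, at 0.91 log2 units in young mice and −0.80 in adults. The difference was not tested, since each group has 1 library. Outlying samples could not be looked for with 1 library per group.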

How the results depend on the processing

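No result has a replicate check, and no paired analysis was possible because each group has 1 library. Of 248 single-gene ratios of the 8 genes under the 8 alternatives, 218 stayed on the same side of the threshold, 12 fell below it, 18 passed it and 0 reversed as a called value. The number of the 8 genes changed by injury in young cartilage (2) was 5 with a pseudocount of 0.1 FPKM, 4 at 1.5-fold, and 1, Mrc1, with a pseudocount of 5 FPKM and at 3-fold. In adult cartilage (4) it was 6 with a pseudocount of 0.1 FPKM, 5 at 1.5-fold, 0 with a pseudocount of 5 FPKM and 2 at 3-fold. Between the sham libraries (0) it was 1 with a pseudocount of 0.1 FPKM, as TPM, after median-of-ratios or quantile scaling and at 1.5-fold, in each case Retnla. Between the injured libraries (2) it was 3 with a pseudocount of 0.1 FPKM and at 1.5-fold, with Retnla added, 1 with a pseudocount of 5 FPKM, where Nos2 fell to 0.93, and 1 at 3-fold, where Mrc1 was lost. Chil3 in adult cartilage, at 1.02, fell to 0.69 after median-of-ratios and 0.84 after quantile scaling. Its sham ratio, −0.23, changed sign to 0.20 after median-of-ratios scaling. Retnla reached −1.05 in adult cartilage after median-of-ratios and −1.18 after quantile scaling. The number of the 8 genes above the macrophage median was 1 in place of 0 in young cartilage with a pseudocount of 0.1 FPKM and as TPM. In adult cartilage (1) it was 2 with a pseudocount of 0.1 FPKM and 0 with one of 5 FPKM, and between the sham libraries (1) it was 2 with a pseudocount of 0.1 FPKM. The number of the 20 lists with a median past the threshold in young cartilage (5) was 9 with a pseudocount of 0.1 FPKM, 2 with 5 FPKM, 3 after quantile scaling, 10 at 1.5-fold and 1 at 3-fold. In adult cartilage (4) it was 10, 1, 8 with a filter of 1 FPKM, 8 as TPM and 9 at 1.5-fold. Between the injured libraries (0) it was 1 with the filter and at 1.5-fold. The cause of these shifts was not tested.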

Other observations

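Some markers of eosinophils, which also respond to the cytokines of alternative activation, were lower in adult than in young cartilage. Prg2, the eosinophil major basic protein, stood at 36.3 and 55.9 FPKM in sham and injured young cartilage, and at 16.4 and 13.1 FPKM in sham and injured adult cartilage. Ear1, an eosinophil-associated ribonuclease, stood at 7.82, 12.997, 3.16 and 2.56 FPKM in the same order. Of 15 eosinophil, basophil and mast cell genes, 4 were 2-fold or more lower and 0 higher in adult than in young injured cartilage, beside 3.09% of all genes lower. Ccr3, named after its values were seen, went the other way, with 0.302 FPKM after injury in young mice and 0.522 FPKM in adults. Between the sham libraries 2 of 15 were lower, beside 10.6% of all genes, and 0 of 15 changed 2-fold with injury at either age.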
